A study of Mus musculus with 72 samples.

Results

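The genes described here encode the protein subunits of the mitochondrial respiratory chain and of ATP synthase in the mouse. They were chosen by symbol among protein-coding genes, taking Ndufa, Ndufb, Ndufc, Ndufs and Ndufv without the Ndufaf assembly factors, Sdha to Sdhd, Uqcr, Cox4 to Cox8, Atp5, and mt-Nd, mt-Cytb, mt-Co and mt-Atp, and were matched by Ensembl identifier. Of the 55416 genes counted, 103 met this rule, 90 of them nuclear and 13 on the mitochondrial chromosome. By symbol, 47 belong to complex I, 4 to complex II, 9 to complex III, 22 to complex IV and 21 to complex V. The rule also takes in Atp5if1, an inhibitor of ATP synthase, Ndufa4, which is named for complex I but known as a complex IV subunit, and Cox5b-ps, a pseudogene by name that is annotated as protein coding.

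RNA was sequenced from epididymal white adipose tissue (eWAT), liver and pituitary of the same 24 male FVB.129P2 mice, giving 72 libraries. The mice were offspring of dams fed ad libitum (FED) or of dams given 20% less food from embryonic day 15 until weaning (CR20). From 8 weeks of age the offspring ate a control diet with 10% fat (CTRL) or a high fat diet with 45% fat (HFD) for 10 weeks. Each of the 4 groups, FED-CTRL, FED-HFD, CR20-CTRL and CR20-HFD, held 6 mice. The labels do not name the dams, so litter mates within a group cannot be told apart from unrelated mice, and p-values measure the spread between these mice.

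Complexes I and II take electrons from NADH and succinate and pass them through ubiquinone to complex III, and cytochrome c carries them on to complex IV, which reduces oxygen. Complexes I, III and IV move protons across the inner mitochondrial membrane, and complex V, the ATP synthase, makes ATP from the return flow. Complexes I, III, IV and V are built of subunits from both genomes, so a complete chain needs transcripts from the nucleus and from mitochondrial DNA. Several complex IV subunits have alternative isoforms with tissue-restricted expression, such as Cox6a2, Cox7a1 and Cox8b in striated muscle and brown fat and Cox4i2 in lung and in cells at low oxygen.

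Library totals ran from 11589675 to 22364963 counts in eWAT, from 9842813 to 19928212 in liver and from 18299494 to 27601208 in pituitary. Each tissue held its defining markers: Adipoq, an adipocyte hormone, stood at 697 to 4746 counts per 1000000 counts (CPM) in eWAT, 6 hepatocyte genes summed to 67023 to 116570 CPM in liver, and hormone and transcription factor genes of the anterior pituitary summed to 249712 to 366037 CPM in pituitary. Some libraries stood apart. In eWAT, FED-HFD mouse 23 had the lowest sum of 10 adipocyte genes, 12300 CPM, and the highest sum of 12 macrophage genes, 12957 CPM, and CR20-CTRL mouse 5 had the next lowest adipocyte sum, 18226 CPM. Genes of epididymis and testis summed to 131.6 CPM in eWAT of CR20-CTRL mouse 4, 62.1 CPM in that of CR20-CTRL mouse 5 and 28.5 CPM in that of CR20-HFD mouse 6, and to at most 0.233 CPM in the other eWAT libraries. In liver, CR20-CTRL mice 4 and 5 stood apart in short transcripts, and in pituitary, FED-HFD mouse 10 had 103.6 CPM of Ucp1, the uncoupling protein of brown fat, where the other mice had at most 0.0460 CPM. Within a tissue, counts of called members are also given without these mice where leaving them out changes the count.

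The first question was whether maternal restriction altered the subunit transcripts of mice on the high fat diet. In eWAT, 20 of the 96 tested members were higher in CR20-HFD than in FED-HFD mice and 0 were lower (edgeR quasi-likelihood test, adjusted p under 0.05 with Benjamini-Hochberg adjustment over 15964 genes). Over all tested genes, 4.89% were called higher and 10% lower. The called members were 11 nuclear subunits of complex I, 1 of complex III, 5 of complex IV and 3 of complex V, and complex II and the mitochondrial genes had 0. Of the tested members, 93 had a log2 fold change (log2FC) above 0. The median log2FC was 0.31 for the 86 nuclear members and 0.40 for the 10 mitochondrial members, against 0.02 over all tested genes. In bulk tissue, fewer cells of a type and less RNA per cell cannot be told apart.

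Cox4i2 (ENSMUSG00000009876, chr2:152595625-152606959 in GRCm39), the alternative isoform of the regulatory subunit 4 of cytochrome c oxidase, had the smallest p. In eWAT it ranged from 0.780 to 2.47 CPM in FED-HFD mice, with a median of 1.67, and from 2.44 to 4.41 CPM in CR20-HFD mice, with a median of 3.78. The groups overlapped only by the highest FED-HFD mouse, which lay just above the lowest CR20-HFD mouse. The log2FC was 1.12 (SE 0.23, edgeR adjusted p = 0.0025, exact two-sided permutation p = 0.00433 over 924 divisions of the mice). FED-CTRL mice spanned 2.24 to 4.04 CPM (median 2.48) and CR20-CTRL mice 2.61 to 3.62 CPM (median 3.08), so the medians of both control-diet groups lay between those of the high fat groups. Its common counterpart Cox4i1 (ENSMUSG00000031818) was far more abundant, at 352 to 487 CPM in FED-HFD mice (median 439) and 501 to 604 CPM in CR20-HFD mice (median 565). These groups did not overlap, and the log2FC was 0.39 (SE 0.12, edgeR adjusted p = 0.0307).

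Among complex I genes, Ndufs7 (ENSMUSG00000020153), which carries the last iron-sulfur cluster before ubiquinone, reached 60.7 to 86.1 CPM in FED-HFD mice (median 80.1) and 98.98 to 124.5 CPM in CR20-HFD mice (median 105.8). Every CR20-HFD mouse was above every FED-HFD mouse, with a log2FC of 0.49 (SE 0.13, edgeR adjusted p = 0.0116). Ndufv1 (ENSMUSG00000037916), the flavin-bearing subunit that oxidizes NADH, lay at 111 to 178 CPM in FED-HFD (median 172) and 201 to 239 CPM in CR20-HFD mice (median 214). It likewise showed no overlap, with a log2FC of 0.44 (SE 0.12, edgeR adjusted p = 0.0157). The exact permutation p of both genes was 0.00216, the smallest that 6 against 6 mice can give. Cox4i2, Ndufs7 and Ndufv1 were the members called in each of the 24 fits that left out 1 mouse. The other called complex I members were the accessory subunits Ndufa2, Ndufa3, Ndufa7, Ndufa13, Ndufb7, Ndufb8, Ndufb9, Ndufb10 and Ndufv3, with log2FC from 0.42 for Ndufb10 to 0.54 for Ndufv3.

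For complex III, Uqcr11, a small accessory subunit, ranged from 92.5 to 165 CPM in FED-HFD mice (median 145) and from 158 to 243 CPM in CR20-HFD mice (median 216). The ranges overlapped slightly, and the log2FC was 0.57 (SE 0.17, edgeR adjusted p = 0.0258). For complex V, Atp5me, subunit e of the membrane part of ATP synthase, lay at 43.9 to 76.0 CPM in FED-HFD (median 56.6) and 64.1 to 122.3 CPM in CR20-HFD mice (median 90.9), with a log2FC of 0.64 (SE 0.19, edgeR adjusted p = 0.0225). Atp5mc2, which encodes the proton-carrying c subunit of the rotor, changed least among the 20, from a median of 58.0 to 68.9 CPM (log2FC 0.29, SE 0.09, edgeR adjusted p = 0.0321), yet its 2 groups did not overlap. The other called members were Atp5f1d of complex V and Cox5b, Cox6a1 and Cox7c of complex IV. Just outside the threshold stood Uqcrc1, a core subunit of complex III, with an adjusted p of 0.0502, and Ndufs6 of complex I with 0.0507.

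In all, 13 members were higher in every CR20-HFD mouse than in every FED-HFD mouse, against 2.5% of all tested genes, and 0 were lower in every mouse, against 4.17%. Each change was small: the log2FC of the called members other than Cox4i2 ran from 0.29 to 0.64, and under the study's rule (adjusted p under 0.055 and an absolute log2FC of at least 0.58) only Cox4i2 and Atp5me passed, beside 9.73% of all genes. The number called was 59 with limma and quality weights, beside 20.6% of all genes in either direction, 27 with DESeq2, beside 18.5%, and 6 with no filter on low counts, beside 5.06%. By edgeR with the filter, 14.9% of all genes were called in either direction. The number also depended on single mice, and so did that of all genes. It was 4 without FED-HFD mouse 23 (8.46% of all genes), 5 without FED-HFD mouse 13 (11.1%), CR20-HFD mouse 7 (10.6%) or CR20-HFD mouse 46 (11.7%), 7 without CR20-HFD mouse 6 (12%), and 9 without FED-HFD mouse 12 (11.4%) or CR20-HFD mouse 45 (12.3%). It was 34 without FED-HFD mouse 40 (17.3%) and 48 without CR20-CTRL mouse 5 (19.6%), whose group is not compared here but enters the estimate of the spread. Without mice 23 and 5 together, 34 members were called (13.4%), with a nuclear median log2FC of 0.26 and a mitochondrial one of 0.28, and without mice 4, 5 and 6, 36 were called (17.1%).

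**Figure D1:**
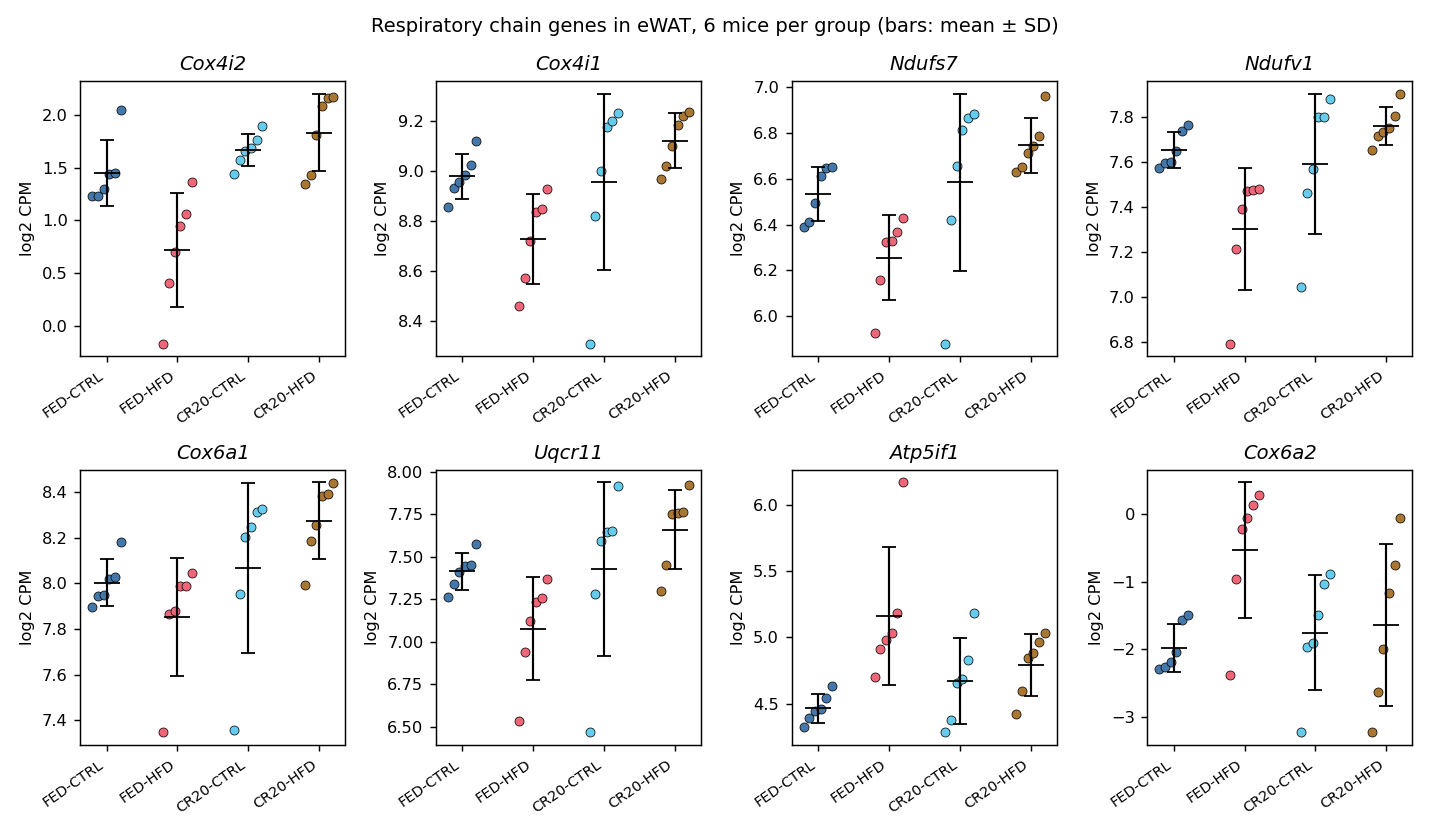
Log2 CPM in eWAT of 8 members, with 1 point for each of the 6 mice of each group and bars for the mean ± SD. The CR20-HFD points of Ndufs7, Ndufv1 and Cox4i1 all lie above the FED-HFD points, while Atp5if1 and Cox6a2 have their highest mice and means in the FED-HFD group.

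Markers of other cells moved with the same comparison. Of 12 macrophage genes, 9 were called lower in eWAT of the CR20-HFD group than of the FED-HFD group (median log2FC -1.06), and their summed level was 2663 to 12957 CPM in FED-HFD and 1471 to 2517 CPM in CR20-HFD mice. Of 10 adipocyte genes, 2 were called higher (Cfd, log2FC 1.49, and Retn, 1.02), with sums of 12300 to 34719 CPM in FED-HFD and 36473 to 40500 CPM in CR20-HFD mice. The summed nuclear subunit transcripts, as a share of all counts, were 9318 to 12575 CPM in FED-HFD and 12116 to 14607 CPM in CR20-HFD mice. Of 4 tested skeletal muscle genes 1 was called higher (Acta1, log2FC 1.29), of 4 hepatocyte genes 1 was called higher (Cyp2e1) and 2 lower (Apoa1 and Ttr), and of 5 brown or beige adipocyte and 4 erythroid genes 0 were called. Of the 3 libraries with genes of epididymis and testis, that of CR20-HFD mouse 6 enters this comparison. Transcript length was read beside it as well. Nuclear members with transcripts of up to 700 bases deviated from the eWAT mean by medians of -0.52 to 0.07 on the log2 scale in FED-HFD and of -0.08 to 0.35 in CR20-HFD mice, and other protein-coding genes of that length by -0.10 to 0.07 and -0.15 to 0.25. Above 1500 bases the members deviated by -0.50 to 0.03 and -0.00 to 0.20, and the other genes by no more than 0.03 either way. The part of these cell types and of transcript length in the subunit results was not tested.

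The regulators NRF1, GABPA, ERR and YY1 are known to bind promoters of many nuclear subunit genes, so the 250 bases before the start of each gene were searched for CCGGAAG (GABPA), TCAAGGTCA (ERR), AAGATGGCG (YY1) and, for NRF1, GCGC, any base and TGCGC in a row, on both strands. RefSeq windows (GRCm38.p6) were matched to 69 of the 90 nuclear members. With under 80% of members matched, a comparison of shares is void, and the counts are given only as a description. The NRF1 letters were found in 13 members and in 4.23% of 27025 genes, the GABPA letters in 12 members and 7.83% of genes, the ERR letters in 1 member (Atp5mc3) and 0.422% of genes, and the YY1 letters in 1 member (Atp5pf) and 0.71% of genes. Cox4i1, Cox4i2, Ndufa2 and Ndufb9 were among the members with no window. Of the members called in CR20-HFD against FED-HFD eWAT, 5 hold such letters, and the windows of 4 are printed below. The fifth, Ndufb7 (log2FC 0.44), holds the GABPA letters from 20 bases before the start. They are written 5′ to 3′ toward the gene start, with the matching letters in capitals, and lie at chr5:115348959-115349208, minus strand (Cox6a1), chr15:102671048-102671297, minus strand (Atp5mc2), chr5:108434400-108434649, minus strand (Atp5me) and chr10:80406822-80407071, minus strand (Uqcr11).
Cox6a1: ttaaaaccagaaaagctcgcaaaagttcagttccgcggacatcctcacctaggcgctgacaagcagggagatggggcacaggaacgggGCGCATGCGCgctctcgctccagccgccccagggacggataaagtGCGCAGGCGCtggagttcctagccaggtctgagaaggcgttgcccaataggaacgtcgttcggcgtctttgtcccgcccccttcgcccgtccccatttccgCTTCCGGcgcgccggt
Atp5mc2: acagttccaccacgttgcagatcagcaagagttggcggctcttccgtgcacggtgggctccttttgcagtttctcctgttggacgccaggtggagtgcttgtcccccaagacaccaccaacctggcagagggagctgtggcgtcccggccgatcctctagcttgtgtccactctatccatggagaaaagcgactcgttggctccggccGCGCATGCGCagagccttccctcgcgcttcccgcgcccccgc
Atp5me: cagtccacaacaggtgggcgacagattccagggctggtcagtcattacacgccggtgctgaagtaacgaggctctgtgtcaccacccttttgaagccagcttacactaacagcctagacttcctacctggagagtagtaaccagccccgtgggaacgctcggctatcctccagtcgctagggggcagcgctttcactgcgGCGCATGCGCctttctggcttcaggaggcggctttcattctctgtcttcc
Uqcr11: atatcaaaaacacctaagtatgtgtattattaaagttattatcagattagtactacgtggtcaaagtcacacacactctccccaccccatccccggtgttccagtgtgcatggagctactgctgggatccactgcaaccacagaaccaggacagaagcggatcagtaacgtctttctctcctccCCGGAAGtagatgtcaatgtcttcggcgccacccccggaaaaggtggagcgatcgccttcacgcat

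In these windows, Cox6a1, the common isoform of complex IV subunit 6a, holds the NRF1 letters from 162 bases before the start. On the opposite strand it holds the NRF1 letters from 117 bases and the GABPA letters from 16 bases before the start. Atp5mc2 and Atp5me hold the NRF1 letters from 42 and 50 bases before the start, and Uqcr11 the GABPA letters from 66 bases before it. In eWAT, Cox6a1 ranged from 163 to 264 CPM in FED-HFD mice (median 245) and from 254 to 347 CPM in CR20-HFD mice (median 319), with a log2FC of 0.41 (SE 0.13, edgeR adjusted p = 0.0396). Most called members with a window, such as Ndufs7 and Ndufv1, held none of the 4 motifs there.

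The next question was what the high fat diet did to the subunit transcripts of FED offspring. This comparison shares the 6 FED-HFD mice with the one above, so the 2 are not independent. In eWAT, 2 of the 96 tested members were called higher and 1 lower in FED-HFD than in FED-CTRL mice, against 7.81% of all tested genes called higher and 2.71% lower. Of the tested members, 87 had a log2FC below 0, with a median of -0.20 for nuclear and -0.40 for mitochondrial members beside -0.00 over all genes. At an unadjusted p under 0.05, 2 members were higher and 19 lower, against 15% and 10.7% of all genes. Single mice weighed on this number: in either direction it was 6 without FED-HFD mouse 23, 7 without FED-HFD mouse 13 and 47 without CR20-CTRL mouse 5. The shares of all genes at that threshold are not given for these fits. With 1 mouse left out at a time, the nuclear median ran from -0.26 to -0.16 and the mitochondrial one from -0.52 to -0.27. Limma with quality weights, the test of the study's methods, called 3 higher and 31 lower, beside 20.6% of all genes in either direction.

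Atp5if1 (ENSMUSG00000054428), the inhibitor that keeps ATP synthase from running backward, ranged from 19.9 to 24.7 CPM in FED-CTRL mice (median 21.8) and from 25.8 to 71.9 CPM in FED-HFD mice (median 32.0). The groups did not overlap, and mouse 23 stood far above the other FED-HFD mice, which reached 36.2 CPM. The log2FC was 0.79 (SE 0.19, edgeR adjusted p = 0.0108) and 0.50 without mouse 23. In CR20 mice on the 2 diets Atp5if1 spanned 19.4 to 36.3 CPM and 21.3 to 32.7 CPM. Its log2FC of -0.45 in CR20-HFD against FED-HFD mice was not called (edgeR adjusted p = 0.114). Atp5if1, Cox6a2 (-1.26) and Cox7a1 (-0.18) were the 3 tested members below 0 in that comparison, and each was above 0 in FED-HFD against FED-CTRL mice, which shares the FED-HFD mice.

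Cox6a2 (ENSMUSG00000030785), the isoform of subunit 6a typical of striated muscle, was near the limit of detection, which 3 counts put at 0.134 to 0.259 CPM in these libraries. FED-CTRL mice had 0.0974 to 0.249 CPM (median 0.124), which is 2 to 5 counts, and FED-HFD mice 0.0844 to 1.10 CPM (median 0.801), which is 1 to 24 counts. All but 1 FED-HFD mouse lay above the FED-CTRL mice, and the fitted log2FC was 2.15 (SE 0.65, edgeR adjusted p = 0.0348). Cox4i2 fell in the same comparison, from a median of 2.48 to 1.67 CPM, by 0.72 on the log2 scale (SE 0.23, edgeR adjusted p = 0.0472), a call that was lost in 20 of the 24 fits that left out 1 mouse. Without mouse 23 neither Cox4i2 (adjusted p = 0.133) nor Cox6a2 (adjusted p = 0.0993) was called by edgeR. Without FED-CTRL mouse 15, 16, 24, 41 or 42 or FED-HFD mouse 12, 13 or 23, 1 member was called, beside 5.44 to 9.03% of all genes, and without CR20-CTRL mouse 5, 14 members were, beside 14.1%. Without mice 23 and 5 the count was 2, beside 8.59%, and without mice 4, 5 and 6 it was 12, beside 13.4%.

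Genes of brown and beige adipocytes gave a mixed picture beside these isoforms. Of 5 tested, Ucp1 (log2FC 3.80), Dio2 (1.81) and Elovl3 (1.70) were called higher in FED-HFD than in FED-CTRL eWAT, although Ucp1 did not exceed 2.98 CPM in any mouse. Cidea (-0.44, edgeR adjusted p = 0.381) and Prdm16 (-0.40, adjusted p = 0.6) were not called, and the summed level of the brown and beige genes was 9.88 to 20.8 CPM in FED-HFD and 13.2 to 18.6 CPM in FED-CTRL mice. Cox7a1 and Cox8b, the isoforms of subunits 7a and 8 that brown fat shares with muscle, were not called: their log2FC were 0.25 and 0.33 (edgeR adjusted p = 0.528 and 0.517). Cox8b lay at 13.4 to 19.7 CPM in FED-HFD mice other than mouse 23, which had 3.72 CPM, and at 9.25 to 13.2 CPM in FED-CTRL mice. Of 12 macrophage genes, 7 were called higher (median log2FC 0.88), and of 10 adipocyte genes 0 were called (median -0.41); their part in the subunit values was not tested.

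The remaining eWAT comparisons gave few calls. In CR20-HFD against CR20-CTRL mice, 0 members and 0% of all genes were called by edgeR, DESeq2 or limma, and 0 members had an unadjusted p under 0.05, where 1.53% of all genes were higher and 4.49% lower. The smallest p belonged to Ndufa7 (log2FC 0.26) and Ndufv3 (0.33), both with an edgeR adjusted p of 0.86, and the nuclear median log2FC was 0.09. In CR20-CTRL against FED-CTRL mice the count was also 0, with 0% of all genes called and 0 members at an unadjusted p under 0.05 (all genes 6.27% higher and 1.12% lower), led by Atp5mc1 (log2FC 0.17, edgeR adjusted p = 0.725) and Cox5b-ps (0.39, adjusted p = 0.817). Leaving out CR20-CTRL mouse 5, which was low in most members, turned neither into a call.

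The test of the difference itself, the interaction of maternal group and diet, called 0 members in eWAT by edgeR, DESeq2 or limma, against 2.29% of all genes, or 0% without mice 4, 5 and 6. At an unadjusted p under 0.05, 15 members were higher and 1 lower, against 5.45% and 12.7% of all genes, and Cox4i2 (log2 difference 0.92, edgeR adjusted p = 0.131) and Ndufv1 (0.48, adjusted p = 0.133) came first. The response to diet was therefore not shown to differ between FED and CR20 mice for any member. Averaged over the 2 diets, CR20 mice had more Cox4i2 than FED mice (log2FC 0.66, edgeR adjusted p = 0.0205). This average takes in the high fat comparison above, so it is not a separate result. On the control diet alone, 0 members had an unadjusted p under 0.05. In the average, Cox4i2 was the only member called, against 2.8% of all genes called higher. There, 39 members had an unadjusted p under 0.05, all in the higher direction, against 12.7% of all genes. The number called was 3 without FED-HFD mouse 40 (8.93% of all genes), 4 without CR20-CTRL mouse 47 (7.57%), 2 without CR20-HFD mouse 32 (5.63%), 31 without CR20-CTRL mouse 5 (8.4%), 30 without mice 23 and 5 (8.45%) and 17 without mice 4, 5 and 6 (5.85%), beside 6.68% of all genes with every mouse. Averaged over maternal groups, the high fat diet gave 0 calls by edgeR, beside 0.251% of all genes, 1 by DESeq2, beside 3.43%, and 6 by limma with quality weights, beside 6.92%; 2 members were higher and 3 lower at an unadjusted p under 0.05, against 9.17% and 7.91% of all genes, and Atp5if1 came first (log2FC 0.44, edgeR adjusted p = 0.111).

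**Figure D2:**
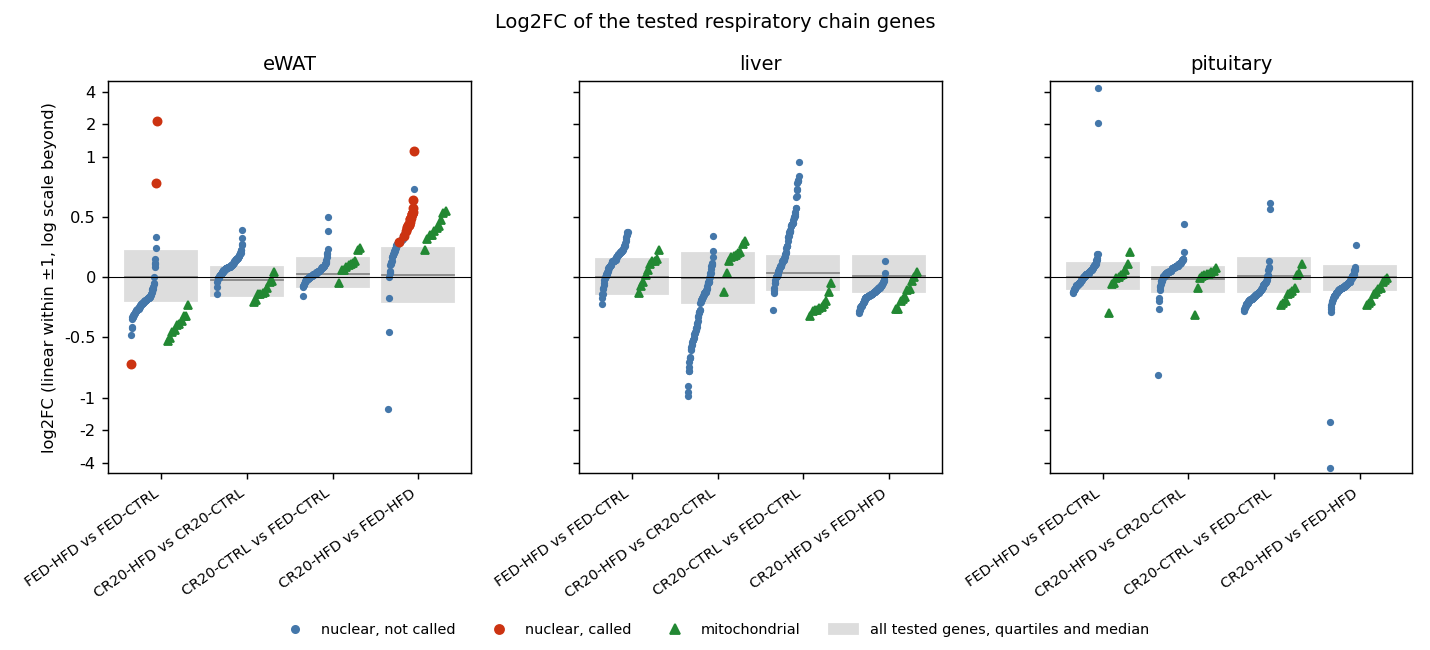
Log2FC of the tested members in the 4 comparisons of groups within each tissue, on an axis that is linear within ±1 and logarithmic beyond. Circles are nuclear members (red where called), triangles mitochondrial members, and grey boxes show the quartiles and median of all tested genes. In eWAT the members sit above the box in CR20-HFD against FED-HFD and mostly below it in FED-HFD against FED-CTRL, and the 2 high points of the pituitary panel are Cox8b and Cox7a1.

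Genes that serve the same pathway were read beside the subunits. In CR20-HFD against FED-HFD eWAT, 3 of 42 tested assembly factors were called higher, against 4.89% of all genes, and 0 lower: Uqcc3 (log2FC 0.53, edgeR adjusted p = 0.0026), Cox14 and Ndufaf7, which help to build complexes III, IV and I. Both mitochondrial ribosomal RNAs were called higher, mt-Rnr1 with a log2FC of 0.64 (edgeR adjusted p = 0.0266) and mt-Rnr2 with 0.71 (adjusted p = 0.0157). The labels name a total RNA Gold kit, which depletes ribosomal RNA, and the study's methods name an mRNA kit as well, so these counts are what the library preparation left and are uncertain as levels. Of 10 carriers and pores, 2 were called higher (Slc25a4, the ATP/ADP exchanger, log2FC 0.37, and Timm44, a motor part of protein import, 0.23). Of 13 enzymes of the citric acid cycle 0 were called (median log2FC 0.19), and of 19 regulators of mitochondrial biogenesis and 2 genes for cytochrome c and c1, 0 each.

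The 13 mitochondrial genes summed to more counts than the nuclear members in every library except the liver of CR20-CTRL mouse 5, and they made up 1.65 to 5.02% of all counts in eWAT, 1.44 to 7.89% in liver and 1.40 to 2.65% in pituitary. Their levels per kilobase differed by orders of magnitude, although both strands are transcribed as long precursors. In eWAT, the mean over 24 mice was 6954 CPM per kilobase for mt-Co1 and 5778 for mt-Cytb, the catalytic core subunit of complex IV and cytochrome b of complex III. For the complex I subunits it was 2746 for mt-Nd1, 1992 for mt-Nd6, 1856 for mt-Nd4, 1682 for mt-Nd2 and 1349 for mt-Nd5. By contrast, mt-Co2 had 2.78, mt-Co3 1.75, mt-Atp6 1.31, mt-Atp8 0.606, mt-Nd4l 0.395 and mt-Nd3 0.197 CPM per kilobase.

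The 6 low genes are next to each other, and their sequence occurs again in the nuclear genome. The region from 24650616 to 24655265 on chromosome 1 (GRCm39, minus strand) carries a copy of mitochondrial bases 6394 to 11042. Of the stretches of 100 bases, the length of 1 read, within mt-Co2, mt-Atp8, mt-Atp6, mt-Co3 and mt-Nd4l, 100% were found in the copy letter for letter, 98.8% for mt-Nd3, 60.8% for mt-Nd4, 26.3% for mt-Co1 and 0% for the other 5. The 6 genes summed to 3.18 to 9.24 CPM in eWAT, 5.65 to 11.1 in liver and 2.35 to 5.36 in pituitary, where the other 7 summed to 16518 to 50212, 14383 to 78871 and 13984 to 26530 CPM. How reads that match both places were counted is not given in the sources used here, and its part in these levels was not tested. The counts of these 6 genes, and of mt-Nd4 and mt-Co1 in part, are therefore uncertain as levels. The strand setting of the counting is not given either, so mt-Nd6, which lies opposite other mitochondrial transcripts, is uncertain too.

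**Figure D3:**
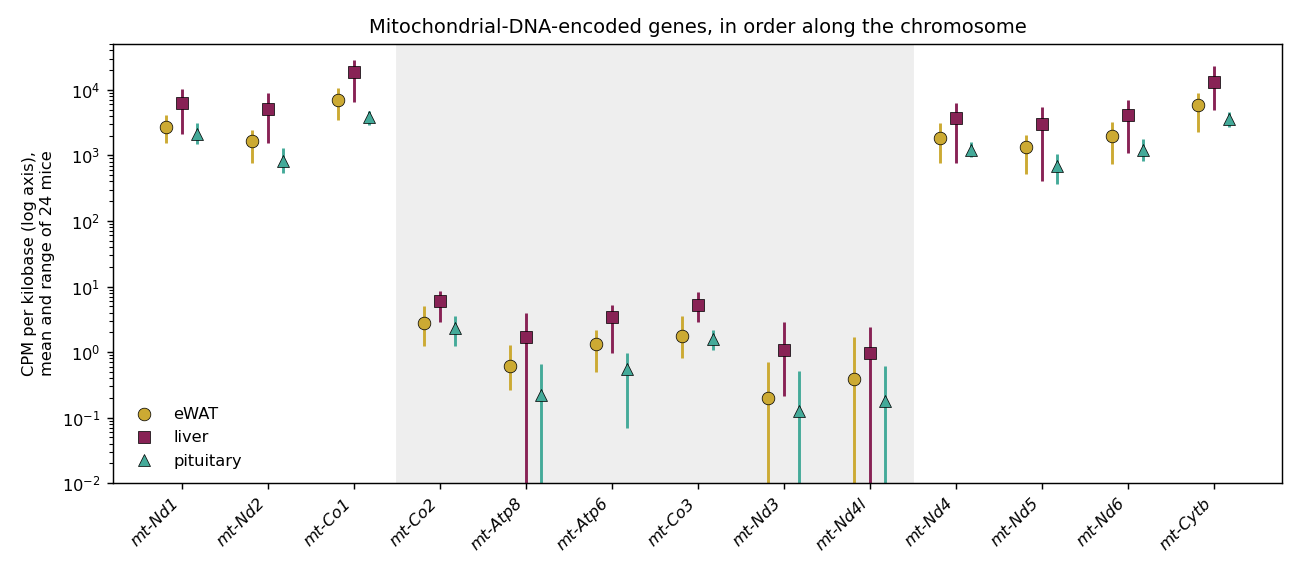
Mean level of the 13 mitochondrial genes in CPM per kilobase, on a log axis, in the order of their starts along the chromosome, for 24 mice per tissue, with vertical lines from the lowest to the highest mouse. Shading marks the 6 genes with at least 95% of their 100-base stretches in the chromosome 1 copy, which lie far below the other 7 in every tissue.

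Across the eWAT groups, mt-Co1 ranged from 12287 to 16392 CPM in FED-CTRL mice (median 13674), from 6418 to 14349 in FED-HFD (median 11085), from 8561 to 20063 in CR20-CTRL (median 14476) and from 12130 to 16851 in CR20-HFD mice (median 12742). The groups overlapped widely, and neither the log2FC of 0.32 in CR20-HFD against FED-HFD (edgeR adjusted p = 0.279) nor that of -0.39 in FED-HFD against FED-CTRL mice (adjusted p = 0.201) was called. For mt-Cytb the log2FC was 0.41 in the first (edgeR adjusted p = 0.182) and -0.44 in the second (adjusted p = 0.181). All 10 tested mitochondrial members were above 0 in the first of these comparisons and below 0 in the second, which share the FED-HFD mice, and 0 were called in either. These 10, which also give the mitochondrial medians, include mt-Co2, mt-Co3 and mt-Atp6, whose levels are uncertain as said above. Their eWAT counts were 16 to 79, 12 to 63 and 7 to 34. mt-Nd3, mt-Nd4l and mt-Atp8 had too few counts to be tested in any tissue.

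In liver, 92 members were tested and 0 were called in each of the 7 comparisons by edgeR, DESeq2 or limma. Of all 13787 tested genes, 0.109% were called in FED-HFD against FED-CTRL, 0.515% in CR20-HFD against CR20-CTRL, 1.74% for diet averaged over maternal groups and 0% in the other 4. At an unadjusted p under 0.05, 4 members were higher in CR20-CTRL than in FED-CTRL mice (1.31% of all genes). At that threshold 5 were lower in CR20-HFD than in CR20-CTRL mice (5.75%) and 1 was lower for diet averaged over maternal groups (7.1%). In the other 4 comparisons 0 passed. There, the shares of all genes that were higher and that were lower, each taken alone, ran from 0.87% to 3.39%. In CR20-CTRL against FED-CTRL mice, Cox7a1 (log2FC 0.95) and Cox7c (0.81) had the smallest p, both with an edgeR adjusted p of 0.999. In CR20-HFD against CR20-CTRL mice Atp5mk (-0.95, edgeR adjusted p = 0.474) and Cox6c (-0.91, adjusted p = 0.477) did.

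These values rest on 2 CR20-CTRL mice. Cox7c, a small complex IV subunit, had 434 CPM in the liver of mouse 4 and 668 CPM in that of mouse 5, and 88.7 to 144 CPM in the other 4 CR20-CTRL mice. The FED-CTRL mice ranged from 103 to 237 CPM (median 137), the FED-HFD mice from 121 to 285 (median 156) and the CR20-HFD mice from 103.7 to 222 (median 149). Cox6c behaved alike, with 607.5 and 1106 CPM in mice 4 and 5 and at most 196 CPM in the rest of the group. Sdha, the flavoprotein of complex II, lay within a narrow range, at 344 to 452 CPM in CR20-CTRL and 353 to 447 CPM in FED-CTRL mice.

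The nuclear members summed to 26006 CPM in mouse 5 and 21053 CPM in mouse 4, and to 10881 to 18810 CPM in the other 22 livers, while the mitochondrial members made up 1.44% and 2.79% of their counts. Length went with these values. In mouse 5, nuclear members with transcripts of up to 700 bases deviated from the tissue mean by a median of 1.19 on the log2 scale, those above that and up to 1500 bases by 1.15 and longer ones by 0.69. Other protein-coding genes of the same classes deviated by 1.14, 0.59 and -0.07. In mouse 4 the members' values were 0.78, 0.61 and 0.45 and those of other genes 0.85, 0.40 and -0.06. The part of transcript length in the liver values was not tested further. Without both mice the count of called members was 0 in every liver comparison, but the nuclear median log2FC turned from 0.23 to -0.23 in CR20-CTRL against FED-CTRL and from -0.21 to 0.23 in CR20-HFD against CR20-CTRL mice. It also turned from -0.35 to 0.10 for the interaction, from -0.08 to 0.19 for diet averaged over maternal groups and from 0.06 to -0.18 for maternal group averaged over diets. No direction of the nuclear members in liver can be read from these comparisons.

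**Figure D4:**
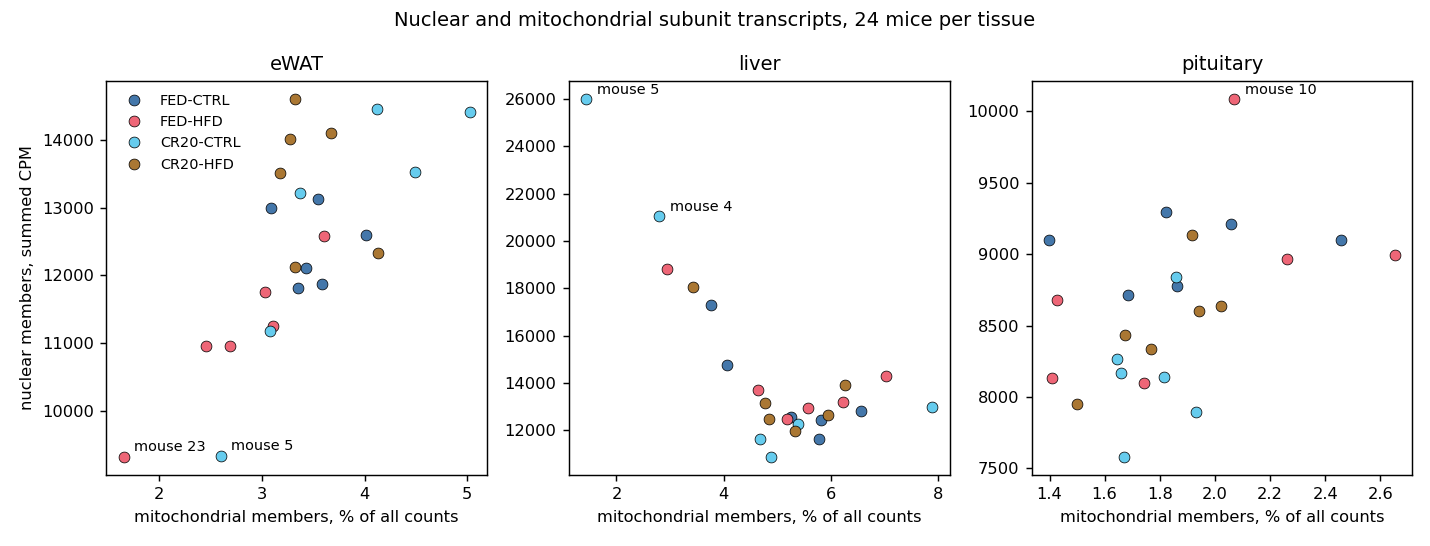
Summed CPM of the nuclear members against the share of counts from the mitochondrial members, for 24 mice per tissue, coloured by group. The liver points of mice 4 and 5 lie at the upper left, with 21053 and 26006 CPM and the lowest mitochondrial shares, followed by FED-HFD mouse 11 and CR20-HFD mouse 32 with 18810 and 18042 CPM, and eWAT mouse 23 lies at the lower left.

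In pituitary, 95 members were tested and 0 were called in each of the 7 comparisons by edgeR, DESeq2 or limma, beside 0.024% of 16657 genes for diet averaged over maternal groups and 0% in the other 6. The members lay slightly lower in CR20 mice. In CR20-CTRL against FED-CTRL mice, 81 members had a log2FC below 0 and 29 had an unadjusted p under 0.05, all lower, beside 6.68% of all genes that were lower at that threshold. The nuclear median log2FC was -0.14, against 0.01 over all genes, and the nuclear sums were 8711 to 9292 CPM in FED-CTRL and 7580 to 8842 CPM in CR20-CTRL mice. Length is given here only for FED-CTRL mice 14, 15, 16, 24 and 41, so these values do not compare the groups. Nuclear members of up to 700 bases deviated from the log2 pituitary mean by 0.10, -0.06, 0.08, 0.16 and 0.15. Other protein-coding genes of that length deviated by 0.11, 0.02, 0.06, 0.10 and 0.13. Above 1500 bases the members deviated by 0.05, -0.04, 0.05, 0.13 and 0.20, and other genes by no more than 0.02. In FED-CTRL mouse 42, for which no length classes are given here, the nuclear members of all lengths deviated by a median of -0.08, the lowest of its group. The part of transcript length was not tested. Averaged over diets, 90 of 95 members were below 0 in CR20 mice with a median of -0.10, and 31 had an unadjusted p under 0.05, all lower, against 5.35% of all genes. On the high fat diet the median was -0.08 in CR20 against FED mice, with 9 members lower at an unadjusted p under 0.05 (3.44% of all genes), and -0.02 without mouse 10. At that threshold, 2 members were higher in FED-HFD than in FED-CTRL mice (4.41% of all genes), 1 was higher in CR20-HFD than in CR20-CTRL mice (2.74%), 6 were higher for diet averaged over maternal groups (3.1%), and 2 were higher and 2 lower in the interaction (4.83% and 6.18%).

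Ndufv3, an accessory subunit beside the NADH site of complex I, had the smallest p in CR20-CTRL against FED-CTRL pituitary. It ranged from 108 to 148 CPM in FED-CTRL mice (median 123) and from 99.9 to 115 CPM in CR20-CTRL mice (median 104.3), and fell by 0.26 on the log2 scale (SE 0.08), which was not called (edgeR adjusted p = 0.119). Atp5mj, a small membrane subunit of ATP synthase, ranged from 39.7 to 48.7 CPM in FED-CTRL and from 33.2 to 39.7 CPM in CR20-CTRL mice, with a log2FC of -0.25 (SE 0.08, edgeR adjusted p = 0.125). The groups overlapped for both genes by the edges of their ranges. Atp5me came first for CR20 against FED averaged over diets, with a log2FC of -0.28 (edgeR adjusted p = 0.208), followed by Ndufb9 with -0.22 (adjusted p = 0.226). Without FED-CTRL mouse 42, 2 members were called lower in CR20-CTRL than in FED-CTRL mice, beside 3.22% of all genes in either direction. In CR20-HFD against CR20-CTRL mice Cox6b2 (log2FC 0.44, edgeR adjusted p = 0.68) and Atp5mj (0.15, adjusted p = 0.71) came first.

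On the high fat diet 2 isoform genes of the pituitary had large log2FC that came from 1 mouse. Cox8b had 56.5 CPM in FED-HFD mouse 10 and 0.0451 to 0.479 CPM in the other 5 FED-HFD mice, beside 0.275 to 0.700 CPM in FED-CTRL mice. Its log2FC in FED-HFD against FED-CTRL mice was 4.30 (edgeR adjusted p = 0.155), with an exact permutation p of 0.844. Without mouse 10 it was -0.45 (adjusted p = 0.748). Cox7a1 had 22.5 CPM in mouse 10 and 0.784 to 2.53 CPM in the others, with a log2FC of 2.05 (edgeR adjusted p = 0.184) and of 0.51 without mouse 10 (adjusted p = 0.49). The same library held 103.6 CPM of Ucp1, 227 CPM of summed adipocyte genes (46.6 to 73.0 CPM in the other 23 pituitaries) and 14.1 CPM of Adipoq. The part of adipose tissue in this library was not tested.

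Levels per kilobase were then compared between tissues, in CPM with trimmed-mean factors. Of the paralogues of subunit 4, Cox4i1 had a mean of 520 CPM (SD 84.7) in eWAT, 918 (SD 397) in liver and 450 (SD 60.7) in pituitary, whereas Cox4i2 had 2.93 (SD 1.00), 0.616 (SD 0.438) and 3.90 (SD 0.730). Liver thus held least Cox4i2, with a log2FC of 2.23 in eWAT against liver (edgeR adjusted p = 4.49e-19) and of 2.69 in pituitary against liver (adjusted p = 2.38e-23). Cox6a1, Cox6b1, Cox7a2 and Cox8a likewise exceeded Cox6a2, Cox6b2, Cox7a1 and Cox8b in the mean of every tissue.

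Cox8b was the member that differed most. It had 4.84 CPM per kilobase (SD 1.62) in eWAT and 0.0176 in liver, where the highest count was 4 in a library, and 1.19 in pituitary, where the mean without mouse 10 was 0.212 (SD 0.136). Its fitted log2FC in eWAT against pituitary was 3.37 (edgeR adjusted p = 1.28e-13), and 4.56 without mouse 10 (adjusted p = 6.71e-32). Cox6b2, known best from testis, had 3.75 CPM per kilobase in eWAT, 0.798 in liver and 3.22 in pituitary, and eWAT and pituitary did not differ by test (log2FC 0.21, edgeR adjusted p = 0.108). Cox7a1 had 8.38, 2.77 and 5.12 CPM per kilobase in the same order, and 3.33 in pituitary without mouse 10. Its call in pituitary against liver was lost without that mouse (log2FC 0.34, edgeR adjusted p = 0.0518). Ndufa4l2, the low-oxygen counterpart of Ndufa4, had 4.64, 2.26 and 4.59 CPM per kilobase, with eWAT and pituitary again not told apart (log2FC -0.01, edgeR adjusted p = 0.972).

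Some common subunits also had a tissue pattern. Ndufa4 had 857 CPM per kilobase in liver, 349 in eWAT and 74.4 in pituitary, the largest fall from liver to pituitary among the members (log2FC -3.51, edgeR adjusted p = 3.88e-37), followed by Uqcrq (-3.43) and Cox7b (-3.29). Cox7a2l, a relative of Cox7a2 that helps to join complexes into supercomplexes, ran the other way, with 163 CPM per kilobase in pituitary, 103 in liver and 66.5 in eWAT. As shares of the library total it had 181, 74.2 and 81.6 in the same order, so pituitary was highest on both scales while the order of liver and eWAT turned. Of the 3 genes that encode the same c subunit of ATP synthase, Atp5mc1 varied most, with 516 CPM per kilobase in liver, 228 in pituitary and 72.6 in eWAT. Atp5mc3 had 536, 129 and 219 in the same order and Atp5mc2 110, 110 and 70.2. As shares Atp5mc2 had 79.8 in liver, 122 in pituitary and 85.9 in eWAT, so that liver went from above eWAT to below it. Atp5if1 was called higher in pituitary than in liver (log2FC 2.35, edgeR adjusted p = 8.06e-35) and than in eWAT, where the log2FC of eWAT against pituitary was -1.53.

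**Figure D5:**
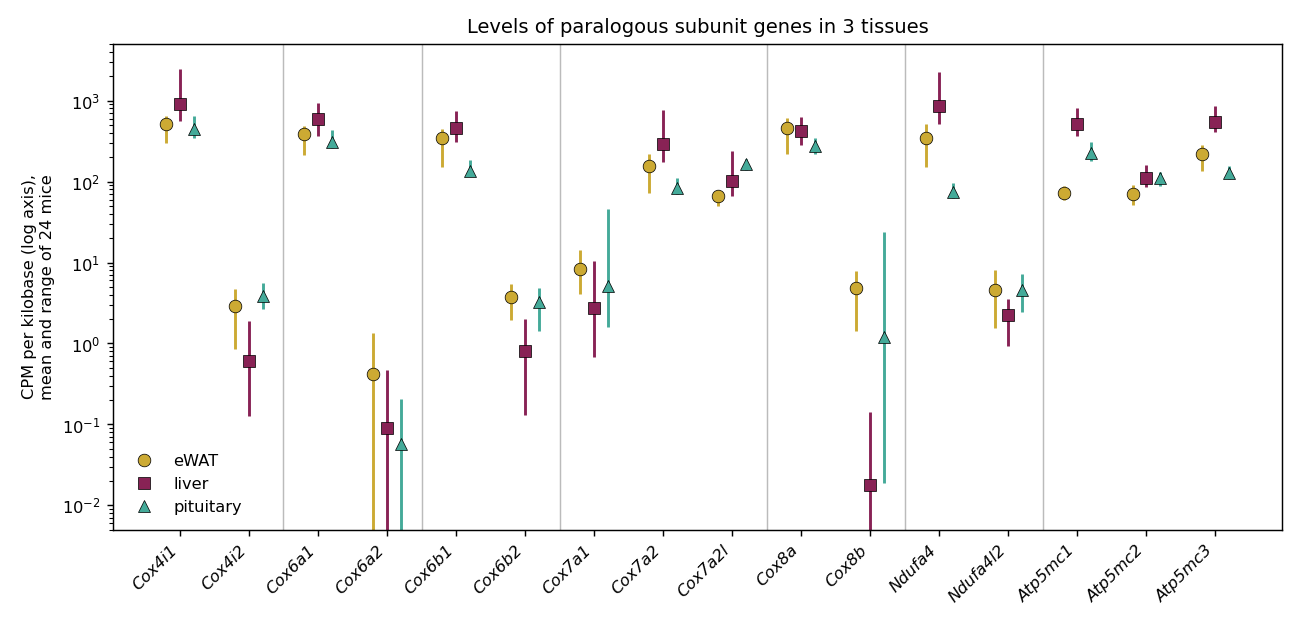
Mean level of paralogous subunit genes in CPM per kilobase, on a log axis, for 24 mice per tissue, with vertical lines from the lowest to the highest mouse. Lines that reach the lower edge stand for mice with 0 counts. The common isoform lies above the scarce one in every pair of complex IV genes, and the range of Cox8b and Cox7a1 in pituitary is stretched upward by mouse 10.

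Among the nuclear members of each complex, the highest level per kilobase in eWAT belonged to Ndufa4, Sdhd (109), Uqcr10 (215), Cox4i1 and Atp5f1b (666), the catalytic beta subunit of ATP synthase. Liver had the same leaders, with Sdhd at 223, Uqcr10 at 457 and Atp5f1b at 794 CPM per kilobase. In pituitary they were Ndufa6 (156), Sdha (103.9), Uqcrh (128), Cox4i1 and Atp5f1a (339). Among nuclear members above 0, the lowest in eWAT were Ndufb2 (4.37), Sdhc (33.6), Uqcrfs1 (46.9), Cox8c (0.00338, 1 count in 1 library) and Atp5mj (17.96). These ranks depend on the length of the canonical transcript. It is 4389 bases for Ndufb2 and 2877 for Atp5mj, against 554 for Ndufs5 and 967 for Ndufa4l2. The highest count in an eWAT library was 601 for Ndufb2, 300 for Ndufs5 and 165 for Ndufa4l2.

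By count, 85 of 96 tested members were called lower and 8 higher in eWAT than in liver (all tested genes 36.6% lower and 46.9% higher), 87 lower and 7 higher in pituitary than in liver (41.6% and 48%), and 69 higher and 16 lower in eWAT than in pituitary (44.2% and 42.7%). These directions depend on how libraries are scaled between tissues. On the scale of trimmed means used for the test, the median log2FC of the members was -1.04 in eWAT against liver, beside 0.22 over all genes. As shares of each library the values rise by 0.75, so that the members' median is -0.29 and that of all genes 0.97, and 19 of the 96 members, 17 of them called, change sign. For pituitary against liver the shift is 0.61, the median -0.83 instead of -1.45, and 7 members change sign. For eWAT against pituitary it is 0.14, the median 0.57 instead of 0.43, and 2 change sign. The shift is added alike to the members and to all genes, so the gap between them cannot differ between the scales. The members' median lay below that of all genes in eWAT and in pituitary against liver. With the mouse as a block, 1 call changed: mt-Co2 in eWAT against pituitary went from an edgeR adjusted p of 0.0356 to 0.0718.

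Of the 103 members, 7 had too few counts to be tested in any tissue: mt-Nd3, mt-Nd4l, mt-Atp8, Ndufb11b, Cox7b2, Cox8c and a second gene named Atp5po. Cox6a2 was also not tested in pituitary, and Cox4i2, Cox6a2, Cox6b2 and Cox8b not in liver. Cox7b2, known from testis, was listed at 0 in every eWAT and liver library and reached 0.192 CPM per kilobase in pituitary.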

How the data were processed

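Per the labels and the study's methods, RNA of 24 male mice in 3 tissues was sequenced as paired reads of 100 bases. The authors trimmed reads with Trimmomatic, aligned them to GRCm39 with STAR and deposited whole-number counts per Ensembl gene from Subread featureCounts; the strand setting is not given in the sources used here. Each of the 72 columns matched 1 sample, and 0 pairs of libraries within a group held the same counts. Counts were tested with edgeR 4.0.16 in R 4.3.3 (filterByExpr, TMM factors, quasi-likelihood F test, two-sided), once per tissue over its 24 libraries and once over all 72 for tissues, with Benjamini-Hochberg adjustment over all tested genes and a call at an adjusted p under 0.05. CPM of single genes use TMM factors, while sums and percentages are shares of the library total. Log2 CPM used a prior count of 2. Levels per kilobase used the length of the canonical Ensembl transcript. Named members with 6 mice a group also had an exact two-sided permutation test. In each of the 7 comparisons per tissue, the 3 higher and 3 lower called members with the smallest p were named, or the 2 smallest p where none was called, with paralogue groups, the 13 mitochondrial genes, and in tissues the 3 largest changes each way and the highest and lowest level per complex. The other names, such as the remaining called members and Sdha, were picked with their values in view. The members and lists were chosen with earlier results of these data known. Alternatives used limma 3.58.1, DESeq2 1.42.0, other filters, scalings and samples, and each mouse left out. The models were tested on simulated counts. The same animal number marks 1 mouse in the 3 tissues, which pairs the libraries; the correlation of their deviations had a median of 0.0342 between eWAT and liver, 0.0355 between pituitary and liver and 0.0276 between eWAT and pituitary. Promoter windows came from RefSeq tables of GRCm38.p6. Intervals of counting error were not needed, since groups hold replicates.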

Additional observations from a re-analysis of the deposited data

Results flagged for a closer look

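Dixon's test, applied to 92 groups of 6 mice, marked 12 values that lie far from the other 5 mice of their group. Chance alone marks about 1 in 20 groups. In eWAT, Cox4i2 had 4.04 CPM in FED-CTRL mouse 24 and 2.24 to 2.64 CPM in the others. Atp5if1 had 71.9 CPM in FED-HFD mouse 23 (25.8 to 36.2 in the others), and Cox8b had 3.72 CPM in the same mouse (13.4 to 19.7 in the others). The eWAT of CR20-HFD mouse 32 had 16851 CPM of mt-Co1 (12130 to 13331 in the others), and its liver had 15809 CPM (19508 to 21819 in the others) and the highest nuclear sum of its group, 18042 CPM (11969 to 13928).

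In liver, FED-HFD mouse 11 had a nuclear sum of 18810 CPM (12465 to 14315 in the others), and FED-CTRL mouse 16 had 0.223 CPM of Cox7a1, a value of 3 counts (0.694 to 1.09 in the others). In pituitary, FED-HFD mouse 10 had 56.5 CPM of Cox8b and 22.5 CPM of Cox7a1. CR20-HFD mouse 45 had 128.5 CPM of Ndufv3 (103 to 111 in the others), and CR20-CTRL mouse 49 had 33.2 CPM of Atp5mj (37.5 to 39.7 in the others).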

How the results depend on the processing

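In eWAT, limma voom with quality weights called 34 members in FED-HFD against FED-CTRL, 59 in CR20-HFD against FED-HFD, 6 for diet averaged over maternal groups and 56 for CR20 against FED averaged over diets. DESeq2 gave 1 and 4 for the averaged comparisons. With no filter on low counts, 1 member was called in FED-HFD against FED-CTRL and 6 in CR20-HFD against FED-HFD, and in pituitary 2 and 1 in the same comparisons. The study's rule left 2 in CR20-HFD against FED-HFD eWAT. Without mice 23 and 5, an alternative chosen after seeing the data, the counts were 34 in CR20-HFD against FED-HFD, 1 for diet and 30 for CR20 against FED. Without mice 4, 5 and 6, also chosen after seeing the data, they were 36, 0 and 17, and 12 in FED-HFD against FED-CTRL. Leaving out 1 mouse at a time gave 1 to 14 members in FED-HFD against FED-CTRL, 4 to 48 in CR20-HFD against FED-HFD, 0 to 1 for diet, 1 to 31 for CR20 against FED, and 0 to 2 in pituitary CR20-CTRL against FED-CTRL. The cause of these differences was not tested. The other counts moved by no more than 1.5 times, and no log2FC of a member called within a tissue changed sign. Of the log2FC of the called members under the alternatives, 662 stayed called and 174 lost their call, and of the summed levels on the other scale, 4 moved by less than the spread between mice and 2 by more.

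With the mouse as a replicate block, 93 members were called in eWAT against liver, 94 in pituitary against liver and 84 in eWAT against pituitary, and beside mt-Co2 the block changed no call. As shares of the library total, the nuclear members summed to 12422 CPM in eWAT and 8630 CPM in pituitary, against 10181 and 7757 CPM with TMM factors. Low counts limit Cox6a2 and Cox8b, and the design has 6 mice a group.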
